A study of Homo sapiens with 9 samples.

Results

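Chromosome 19 is known for its dense clusters of zinc finger genes, and their transcripts were followed here in kidney tubule cells given aristolochic acid, a plant nephrotoxin that forms DNA adducts. Members were taken from the deposited gene table as every protein-coding row whose symbol is ZNF followed by a number and whose locus lies on chromosome 19. That rule, which uses no measured value, gave 249 of the 62703 genes in the table, of which 19407 are protein-coding. HK-2, a human proximal tubule line labelled as papillomavirus 16 transformed and drawn from renal cortex, was grown in 5% serum and starved of serum for 12 h. There were 3 groups of 3 RNA libraries. Untreated cells (replicates 1, 2 and 3) and cells given aristolochic acid (replicates 1, 4 and 6; 5 µg/ml for 48 h) are both labelled wild type. The third group (replicates 1, 3 and 4) received the same aristolochic acid and overexpressed MYDGF, a secreted myeloid-derived growth factor, from an adenovirus. No control vector is named for the first or second group and no solvent for the untreated cells, so the toxin and its solvent, and MYDGF and its vector, cannot be told apart. For 4 libraries the treatment label reads HK-3 or HK-4, and all were taken to be HK-2, the line named for every sample.

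Zinc finger proteins of this family read DNA through an array of C2H2 fingers, each fold held by a zinc ion and contacting a few bases, so that a long array recognises a long site. Most of them also carry a KRAB domain, which recruits the corepressor TRIM28, and TRIM28 brings in the histone methyltransferase SETDB1 and HP1 proteins to form repressive chromatin. Many KRAB zinc finger proteins silence transposable elements, and the genes multiplied by tandem duplication, which left them as neighbours in clusters. The long exons that encode the finger arrays are themselves packaged in repressive chromatin in many cell types.

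Total counts ran from 10.9 to 14.3 in units of 1e6 per library. MYDGF transcripts stood at 123 to 131 CPM (counts per 1e6 counts, scaled by the TMM method) untreated, at 74.2 to 105 under the toxin and at 510.2 to 663 in the MYDGF group. The 14 renal epithelial markers added up to 1001 to 1035 CPM untreated, 1567 to 1687 under the toxin and 1345 to 1368 with MYDGF, of which KRT8 and KRT18 made up most (368 CPM or more each in every library). PAX8, a defining factor of renal epithelium, reached no more than 1.17 CPM and PAX2 no more than 0.495 CPM, and the proximal tubule transporter SLC34A1 and receptor LRP2 were at or near 0. The 5 endothelial markers added up to 1.29 to 1.43 CPM untreated, 7.85 to 13.8 under the toxin and 3.83 to 4.31 with MYDGF, and the 4 leukocyte markers to 2.22 to 3.03, 4.78 to 9.12 and 2.73 to 4.14 CPM, with CD3E at 0 in all 9 libraries. The 4 fibroblast markers summed to 8.19 to 15.6 CPM. The number of genes with at least 1 count was 25852 to 26012, 28527 to 30637 and 27818 to 28762 in the same order of groups. Within these lists PECAM1 (0.475 to 0.671, 5.02 to 11.3 and 1.48 to 2.83 CPM) and CD79A (0.227 to 0.252, 3.40 to 7.42 and 1.41 to 1.68 CPM) held most of the increase, KDR was at or near 0, and CD14 was lower under the toxin (1.98 to 2.72 untreated, 1.21 to 1.56). PECAM1, CD79A, keratins and detected genes moved with the ZNF results, and their part in them was not tested. In bulk RNA, fewer cells of a kind and less RNA per cell cannot be told apart. Separate cultures are not mentioned in the labels, so p-values speak only for the scatter among these libraries, which could be technical.

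At rest most of the family was weakly transcribed. Of the 249 genes, 221 passed the filter on low counts, and their median untreated level was 0.829 FPKM (the authors' fragment counts scaled by gene length and depth), with 126 of them under 1 FPKM. Per length, ZNF146, which codes for a protein of fingers only and is also known as OZF, was the most abundant at 22.8 ± 0.747 FPKM in untreated cells (SD, n = 3). ZNF121, another member without a KRAB match, followed at 10.04 ± 0.36 FPKM, and ZNF428 at 10.01 ± 0.977, ZNF526 at 9.76 ± 0.743, ZNF787 at 8.79 ± 0.75 and ZNF865 at 8.75 ± 0.91 FPKM, all without KRAB. ZNF121, ZNF428 and ZNF526 differed from each other by less than the largest of their SDs, as did ZNF787 and ZNF865. ZNF146 and ZNF121 together took 12.0% of all counts on the 249 genes in untreated cells.

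A further 28 genes were too low to be tested, and 10 of them had no count in any of the 9 libraries. They were not scattered evenly. Of the 28, 13 lie in the pericentromeric cluster between 19.67 and 24.13 Mb, and 11 are consecutive neighbours from ZNF43 to ZNF730 (chr19:21804946-23147221). Within that stretch 8 genes, ZNF257, ZNF676, ZNF729, ZNF98, ZNF492, ZNF99, ZNF723 and ZNF728, were at 0 in all 9 libraries, and all 11 together drew 85 counts over the 9 libraries. A further 3 untested neighbours, ZNF546, ZNF780B and ZNF780A (chr19:39984134-40090943), were low, with 17, 53 and 39 counts over the 9 libraries. A count of 0 in a library leaves room for a level of up to 3 counts of its total, for counting error only. ZNF578, a member of the 51.57 to 53.58 Mb cluster, was also left untested: it had 0, 0 and 2 counts untreated, 3, 40 and 25 under the toxin and 4, 1 and 6 with MYDGF.

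With aristolochic acid, most of the tested genes of the family were called higher. The 249 genes' summed level was 2934, 2841 and 2835 CPM untreated, against 4140.4, 4850.3 and 4509 CPM under the toxin, a ratio of group means of 1.57 ± 0.127 (error propagated from the SDs, n = 3 each). Every treated library lay above every untreated one. As a share of all counts the 249 genes took 0.279 to 0.292% in untreated cells and 0.417 to 0.488% with the toxin. Of the 221 tested genes, 120 rose (54.3%) and 18 fell (8.14%), by edgeR's quasi-likelihood test with Benjamini-Hochberg adjustment over all genes. Over all 18267 genes tested, 29.7% rose and 29.3% fell. The members' median log2 fold change was 0.65, against -0.012 for all genes tested. A rise of at least 2-fold was called for 61 members, where 14.3% of all genes rose that far, and a fall of at least 2-fold for 5, where 11.0% of all genes fell that far. Groups did not overlap for 112 of the 120 that rose (93.3%) and 17 of the 18 that fell (94.4%), against 97.5% and 97.9% of all genes called in these directions. Among all genes tested, 28.9% rose and 28.7% fell without overlap.

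Counts for other gene sets are given beside these, with no test of the difference. Of 225 tested ZNF genes on other chromosomes, 78 rose and 43 fell (median 0.22). Of 798 other protein-coding genes of chromosome 19, 220 rose and 296 fell (median -0.078). ZNF genes of other chromosomes added up to 6903 to 7059 CPM untreated, against 7526 to 8289 CPM under the toxin. The plot of shares by gene set shows them side by side.

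**Figure D1:**
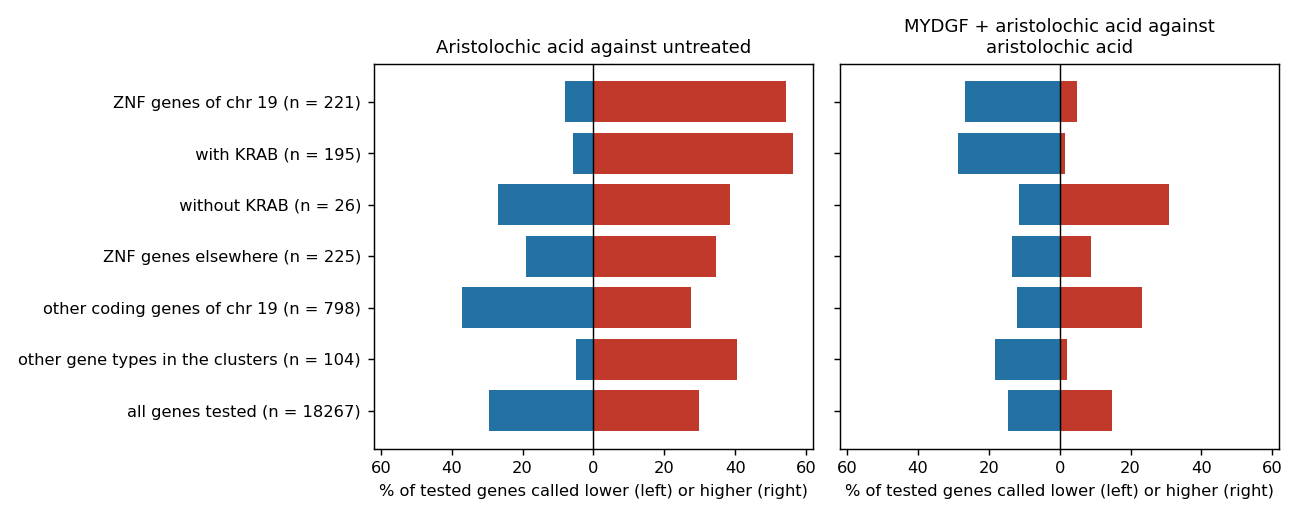
Percent of tested genes called higher (red, right) or lower (blue, left) in each comparison, by gene set, with the number tested in parentheses; other gene types are pseudogenes and non-coding genes. Chromosome 19 ZNF genes were called higher in 54.3% of cases with aristolochic acid and lower in 8.14%, against 29.7% and 29.3% of all genes tested.

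**Figure D2:**
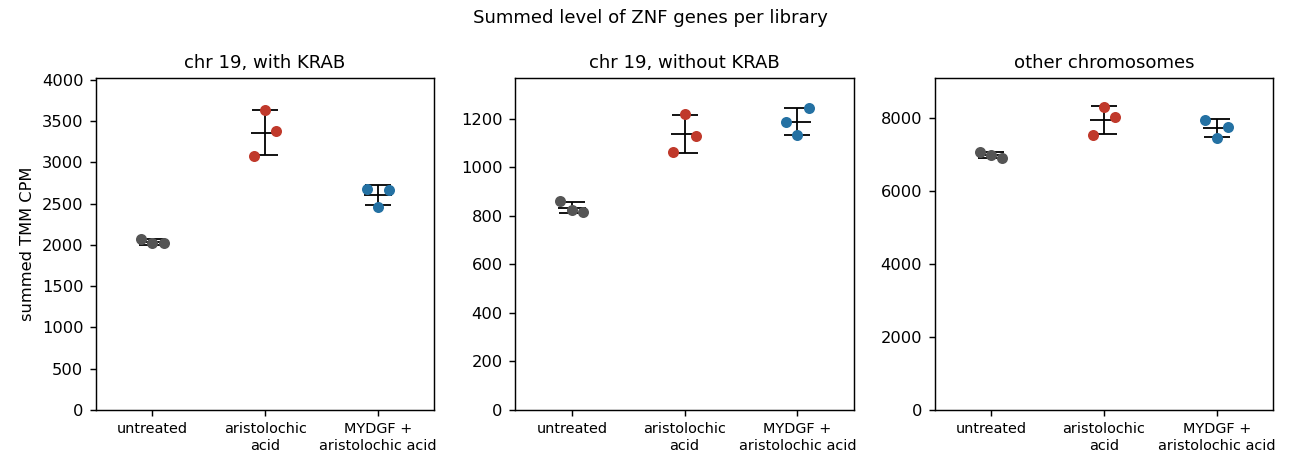
Summed TMM-scaled CPM per library (points) for the chromosome 19 ZNF genes with and without a KRAB match and for ZNF genes of other chromosomes; bars give mean ± SD over 3 libraries. The KRAB sums lay between 2016 and 2074 CPM untreated, between 3076 and 3630 under the toxin and between 2463 and 2683 with MYDGF.

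The rise was uneven along the chromosome. Neighbours no more than 1 Mb apart, start to start, in groups of at least 4, gave 9 clusters holding 238 of the 249 genes, lettered A to I in order along the chromosome (A, 2.82 to 2.94 Mb; B, 7.07 to 9.79; C, 11.48 to 12.64; D, 19.67 to 24.13; E, 34.68 to 34.96; F, 36.18 to 37.82; G, 43.53 to 45.08; H, 51.57 to 53.58; I, 55.48 to 58.48). Cluster F had the highest share of rises, with 20 of its 26 genes up and 0 down (median 1.02). In cluster C 17 of 24 tested genes rose and 1 fell, with the highest median of the 9 (1.24). Clusters D (13 up and 0 down of 24, median 0.75), B (8 and 2 of 16, 0.58), I (30 and 6 of 55, 0.57), H (17 and 1 of 37, 0.52) and G (11 and 4 of 23, 0.48) followed. Of the 5 genes of cluster A, 3 rose and 1 fell. Cluster E stood on the other side of 0: none of its 5 genes rose, 2 fell (ZNF599, -0.39, and ZNF792, -0.71) and its median was -0.23. Whether clusters differ from each other was not tested.

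**Figure D3:**
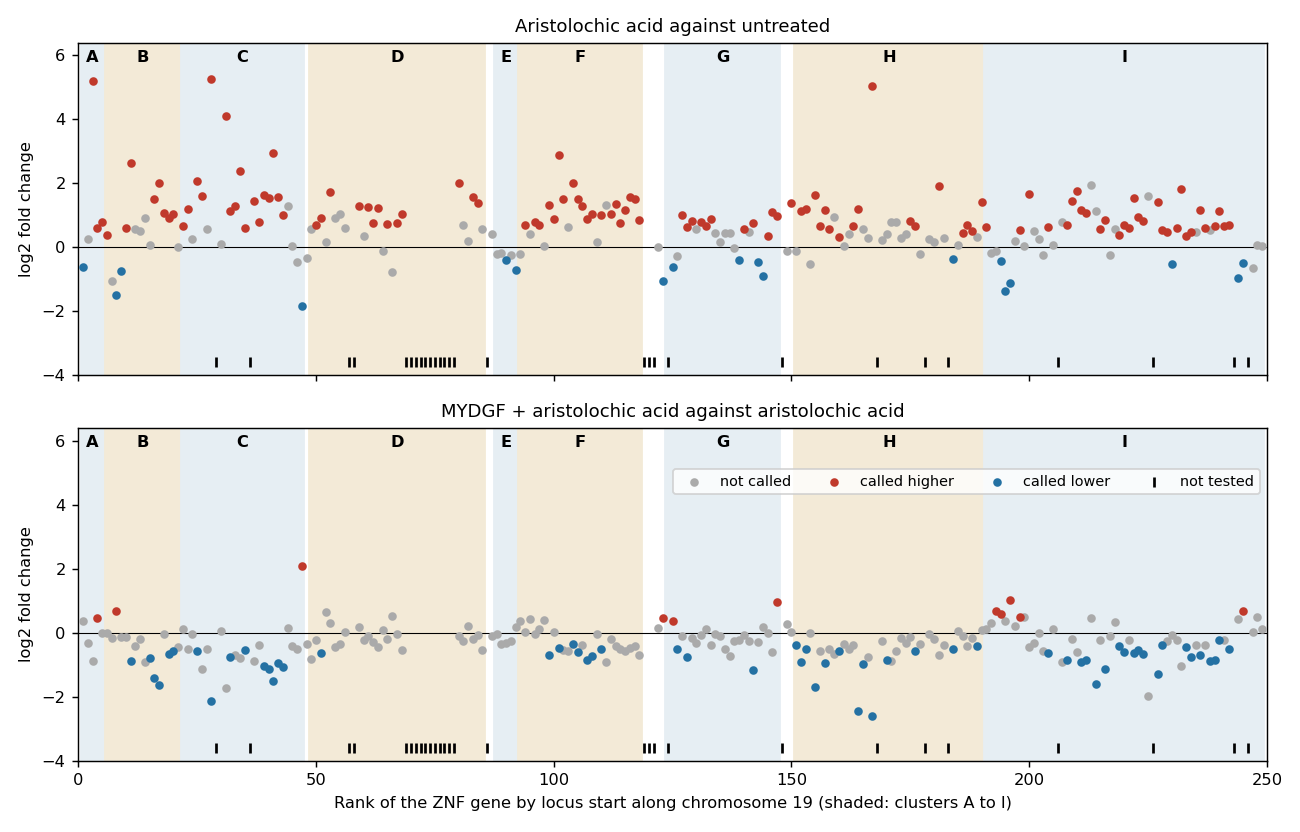
Log2 fold change of each tested ZNF gene (vertical axis) by its rank along chromosome 19 (horizontal axis) in the comparison with aristolochic acid (top) and with MYDGF added (bottom); shading marks clusters A to I and black ticks the 28 untested genes. Clusters C and F lie mostly above 0 in the top panel (medians 1.24 and 1.02), cluster E lies below it, and 11 neighbouring ticks in cluster D mark the stretch from ZNF43 to ZNF730.

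Several runs of neighbouring tested genes were called higher. Whether the runs are longer than the share of calls alone would give was not tested. The longest run held 12 consecutive tested genes of cluster C, ZNF763, ZNF433, ZNF878, ZNF844, ZNF20, ZNF625, ZNF136, ZNF44, ZNF563, ZNF442, ZNF799 and ZNF443. Of these, ZNF763 passed the filter only through treated libraries. In cluster F there were runs of 7 (ZNF569 to ZNF573), 5 (ZNF829 to ZNF585B) and 4 genes (ZNF461 to ZNF790), and in cluster I runs of 6 (ZNF549 to ZNF211) and 5 (ZNF805 to ZNF547). Genes of other types inside the clusters, pseudogenes and non-coding RNAs, had 42 of 104 tested genes up and 5 down (median 0.65). These are 40.4% and 4.81%, where 29.7% and 29.3% of all genes tested rose and fell. Genes of these types outside the clusters were not counted apart. The 80 tested protein-coding genes inside the clusters that are not numbered ZNF genes were split, 28 up and 29 down (median 0.026). In cluster B, for example, 9 such genes rose and 19 fell while the ZNF genes among them had 8 rises and 2 falls.

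Cluster B held 5 neighbours that rose in a row, ZNF560, ZNF426, ZNF121, ZNF561 and ZNF562. The last 4, all on the minus strand, each carry TGACGTCA, the palindrome known as the cAMP response element, just before or across the annotated start. Their promoters (RefSeq, GRCh38.p14, 250 bases before to 50 after the start, 5′ to 3′) are shown because 4 neighbours share the same motif; capitals mark TGACGTCA and, in 3 of them, AAGATGGCG on the opposite strand (the YY1 site, read here as CGCCATCTT).
ZNF426: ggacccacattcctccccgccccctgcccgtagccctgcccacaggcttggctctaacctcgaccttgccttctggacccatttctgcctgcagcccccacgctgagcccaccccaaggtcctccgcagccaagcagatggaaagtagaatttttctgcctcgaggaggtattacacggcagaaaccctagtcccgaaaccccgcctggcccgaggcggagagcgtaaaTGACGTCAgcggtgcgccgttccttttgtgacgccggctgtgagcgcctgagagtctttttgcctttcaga
ZNF121: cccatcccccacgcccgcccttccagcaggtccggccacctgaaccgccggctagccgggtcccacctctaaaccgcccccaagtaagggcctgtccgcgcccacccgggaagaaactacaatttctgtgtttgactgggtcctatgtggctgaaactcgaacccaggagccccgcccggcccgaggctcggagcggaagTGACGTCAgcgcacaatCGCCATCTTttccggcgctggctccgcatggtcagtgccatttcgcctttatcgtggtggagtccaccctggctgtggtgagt
ZNF561: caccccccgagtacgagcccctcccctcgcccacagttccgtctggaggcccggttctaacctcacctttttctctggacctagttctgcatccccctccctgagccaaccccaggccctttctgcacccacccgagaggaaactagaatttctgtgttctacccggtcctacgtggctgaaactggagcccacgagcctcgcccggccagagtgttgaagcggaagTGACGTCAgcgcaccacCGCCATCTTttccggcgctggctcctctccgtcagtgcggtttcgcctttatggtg
ZNF562: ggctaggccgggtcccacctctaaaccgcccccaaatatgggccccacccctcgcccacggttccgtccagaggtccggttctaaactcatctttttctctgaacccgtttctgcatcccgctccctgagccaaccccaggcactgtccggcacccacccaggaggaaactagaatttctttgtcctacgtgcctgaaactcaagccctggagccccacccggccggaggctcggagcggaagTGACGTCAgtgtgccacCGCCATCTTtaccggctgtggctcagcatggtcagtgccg
They lie at chr19:9538596-9538895, chr19:9584455-9584754, chr19:9621183-9621482 and chr19:9675051-9675350, minus strand. TGACGTCA begins 21, 50, 23 and 7 bases before the start in that order.

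All 4 of these neighbours rose with the toxin and their groups did not overlap. ZNF426, a KRAB gene, stood at 22.7, 23.7 and 23.9 CPM untreated, against 72.6, 107 and 104 CPM under the toxin (log2 fold change 2.01, SE 0.18, edgeR adjusted p = 2.46e-05). ZNF121 stood at 153, 145 and 144 CPM untreated, against 255, 358 and 316 CPM under the toxin (log2 fold change 1.07, SE 0.12, edgeR adjusted p = 7.32e-05). ZNF561 stood at 28.1, 28.5 and 28.8 CPM untreated, against 43.2, 59 and 57.5 CPM under the toxin (log2 fold change 0.90, SE 0.13, edgeR adjusted p = 0.00026) and ZNF562 rose by 1.04. ZNF266, another gene of cluster B with the motif, did not pass the test at 29.8, 35 and 33.3 CPM untreated, against 26.6, 39.6 and 36.3 CPM under the toxin (log2 fold change 0.065). The motif stood in 7 of the 218 members with a promoter in the table, among them ZNF543 and ZNF547 of cluster I, which rose by 1.75 and 1.07.

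Among all 218 promoters, CCGGAAGT, a core site of ETS factors, was the most frequent of the 5 motifs searched on either strand. It was found in 45 (20.6%), against 4.44% of all 27305 promoters of the table, 4.55% of other protein-coding genes of chromosome 19 and 14% of ZNF genes elsewhere. It stood in 30 of 108 members that rose (27.8%), 3 of 17 that fell (17.6%) and 9 of 71 that were not called (12.7%). Most of the 45, and most of these 30, lie in cluster I, so the motif was not spread evenly over the family. Neighbours that arose by duplication are not independent, and the shares were not tested. AAGATGGCG was in 8 members: 7 of 108 that rose (6.48%), 0 of 17 that fell and 1 of 71 not called (1.41%). Those that rose include the neighbours ZNF121, ZNF561 and ZNF562 and the neighbours ZNF615 and ZNF614. GCGCATGC, the NRF1 site, was in 9 (4.13%, against 3.27% of all promoters) and CTCGCGAG in 2 (0.917%, against 1.06%). AAGATGGCG stood in 3.67% of members, 1.85% of all promoters, 4.23% of other protein-coding genes of chromosome 19 and 2.33% of ZNF genes elsewhere. For TGACGTCA these shares were 3.21%, 1.98%, 3.49% and 4.65%, and for GCGCATGC 4.13%, 3.27%, 5.19% and 7.44%. No occurrence of these motifs overlapped another in the sequences printed here.

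Members low at rest had promoters with fewer CpG dinucleotides than abundant members, a description with no test. The 23 tested members with a promoter in the table that stood under 2 CPM in untreated cells had a median of 14 CpG dinucleotides in 300 bases, the 34 at 20 CPM or more had 23, and the median of all 218 was 20. The 22 untested members had a median of 16. All 27305 promoters of the table had a median of 14, the same as the low tested members. ZNF439, which had 2 counts in all untreated libraries, has 12 CpG and none of the 5 motifs. ZNF534, with 3 counts, has 20 CpG and CCGGAAGT just after its start. ZNF850, the member with the largest rise among those above 10 CPM at rest, and ZNF414, among the largest falls, share CTCGCGAG, before the start in ZNF850 and across it in ZNF414, and are printed with the former pair to show that rising and falling genes can hold the same letters (capitals mark motif matches).
ZNF439: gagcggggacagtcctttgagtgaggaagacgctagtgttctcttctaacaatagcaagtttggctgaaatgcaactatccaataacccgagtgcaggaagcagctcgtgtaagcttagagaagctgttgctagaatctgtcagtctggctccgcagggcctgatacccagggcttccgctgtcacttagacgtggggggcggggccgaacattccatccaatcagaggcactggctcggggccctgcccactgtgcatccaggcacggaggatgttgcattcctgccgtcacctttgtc
ZNF534: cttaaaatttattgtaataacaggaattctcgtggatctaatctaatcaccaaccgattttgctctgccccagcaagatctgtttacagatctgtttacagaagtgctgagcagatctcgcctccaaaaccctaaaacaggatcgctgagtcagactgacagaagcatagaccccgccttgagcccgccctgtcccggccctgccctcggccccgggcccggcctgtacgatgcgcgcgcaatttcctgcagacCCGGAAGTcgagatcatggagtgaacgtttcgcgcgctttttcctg
ZNF850: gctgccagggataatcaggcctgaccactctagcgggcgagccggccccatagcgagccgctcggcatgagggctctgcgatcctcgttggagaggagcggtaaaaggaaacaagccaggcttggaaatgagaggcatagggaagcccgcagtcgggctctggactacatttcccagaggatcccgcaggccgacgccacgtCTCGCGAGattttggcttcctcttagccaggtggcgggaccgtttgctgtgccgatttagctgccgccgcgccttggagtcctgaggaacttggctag
ZNF414: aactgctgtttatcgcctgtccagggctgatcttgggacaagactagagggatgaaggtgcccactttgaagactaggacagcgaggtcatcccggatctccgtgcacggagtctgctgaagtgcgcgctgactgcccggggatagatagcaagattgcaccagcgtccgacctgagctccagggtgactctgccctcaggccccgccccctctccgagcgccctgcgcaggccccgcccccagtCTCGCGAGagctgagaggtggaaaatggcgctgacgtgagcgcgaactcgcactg
They lie at chr19:11848476-11848775 and chr19:52428898-52429197 on the plus strand and at chr19:36772758-36773057 and chr19:8514118-8514417 on the minus strand (RefSeq, GRCh38.p14). A match describes these letters and not a bound site.

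The largest fitted rises among the tested genes were those of genes nearly silent at rest. ZNF439 (ENSG00000171291, cluster C, chr19:11848726-11883750) stood at 0, 0.0839 and 0.0757 CPM untreated, against 1.46, 2.78 and 3.04 CPM under the toxin. These levels are 2 counts over the 3 untreated libraries against 87 over the 3 treated ones, a CPM ratio of 45.4 (95% counting interval 12.2 to 381). ZNF556 of cluster A rose from 1 count to 48 (ratio 50.1, interval 8.57 to 2020.1) and ZNF534 of cluster H from 3 to 106 (ratio 36.9, interval 12.3 to 182). With so few counts untreated, all of them passed the filter only through other groups, so that a gene this low that did not rise could not have been tested. Their groups did not overlap and edgeR called them, which for this reason is a description only (ZNF439, log2 fold change 5.27, SE 0.63, edgeR adjusted p = 0.000108; ZNF556, edgeR adjusted p = 9.61e-05; ZNF534, adjusted p = 0.00136). The intervals cover counting error only.

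ZNF763, the first of the 12 neighbours of cluster C, stood at 0.0792, 0.252 and 0.151 CPM untreated, against 0.567, 6.03 and 2.12 CPM under the toxin (log2 fold change 4.12, SE 1.20, edgeR adjusted p = 0.0146). Aristolochic acid replicate 4 was far above replicates 1 and 6, and without it the rise was 2.98 and no longer called (adjusted p = 0.0668). ZNF763 was so low untreated that it passed the filter only through treated libraries, so its call is a description only. ZNF763 also shares 49.1% of its 50-base words with other transcripts, so its reads can be ambiguous. ZNF844, of the same run, stood at 2.93, 0 and 3.48 CPM untreated, against 12.6, 15.6 and 5.79 CPM under the toxin (log2 fold change 2.39, SE 0.70, edgeR adjusted p = 0.0153), with no count in untreated replicate 2. ZNF442, farther along the same run, stood at 1.11, 0.923 and 2.35 CPM untreated, against 7.94, 14.1 and 12 CPM under the toxin (log2 fold change 2.94, SE 0.35, edgeR adjusted p = 0.000106), and its groups were well apart.

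Well counted genes rose as well. ZNF850 of cluster F (ENSG00000267041, chr19:36714383-36772825), which encodes 29 fingers, stood at 15.1, 12.7 and 14.8 CPM untreated, against 89.6, 114 and 109 CPM under the toxin (log2 fold change 2.87, SE 0.14, edgeR adjusted p = 3.58e-06). The groups were far apart. ZNF699 of cluster B (ENSG00000196110, chr19:9291140-9309838), with 14 fingers, stood at 14.1, 13.1 and 11.8 CPM untreated, against 72.8, 88.5 and 79.3 CPM under the toxin (log2 fold change 2.62, SE 0.15, edgeR adjusted p = 4.16e-06). ZNF850 overlaps ZNF567 on the opposite strand, which rose by 0.87. ZNF473, also called ZFP100 and a factor in histone pre-mRNA processing, lies outside every cluster. It rose by 1.40 (SE 0.085, adjusted p = 5.36e-06), and it was chosen after its values were seen.

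Of the 18 genes that fell, 7 lack a KRAB match. ZNF791 of cluster C (ENSG00000173875, chr19:12610918-12633840), a KRAB gene at the far end of a cluster where 17 genes rose, stood at 34.1, 30.03 and 18.1 CPM untreated, against 9.23, 4.48 and 9.38 CPM under the toxin (log2 fold change -1.84, SE 0.33, edgeR adjusted p = 0.00119). All treated libraries lay below all untreated ones. ZNF414 of cluster B (ENSG00000133250, chr19:8509678-8514167), which has 1 finger by the search used here, stood at 14, 12.8 and 16.1 CPM untreated, against 5.51, 4.56 and 5.24 CPM under the toxin (log2 fold change -1.49, SE 0.17, edgeR adjusted p = 7.56e-05). ZNF784 fell by 1.36, ZNF580 by 1.11, ZNF526 by 1.05 and ZNF837 by 0.97 on the log2 scale, all without a KRAB match. ZNF285 (-0.90) and ZNF558 (-0.75), both with KRAB, followed. ZNF837 was not called without untreated replicate 1 or without aristolochic acid replicate 4 or 6 (adjusted p 0.0657 to 0.0887), and ZNF285 was lost in 7 of the 9 fits that left out 1 library (adjusted p 0.0525 to 0.113). ZNF580 overlaps CCDC106, which fell by 1.63, and ZNF526 overlaps GSK3A, which fell by 0.33. ZNF791 overlaps ZNF490 on the opposite strand, which was not called (-0.47). The sources used here do not state whether counting used strand, and without it reads from overlapping genes cannot be told apart.

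The presence of a KRAB domain and base composition went with the direction. A KRAB A box was matched in at least 1 open reading frame of 216 members and in none of 32, with 1 member lacking a protein-coding transcript. Of the 195 tested KRAB genes, 110 rose and 11 fell (median 0.68). Of the 26 without it, 10 rose and 7 fell (median 0.12). The 11 falls of KRAB genes became 7 without untreated replicate 1, aristolochic acid replicate 1 or aristolochic acid replicate 6, and 5 without untreated replicate 2 or 3. GC content differed between these classes, with medians of 41.8% and 60.8% over their longest transcripts. Below the protein-coding median of 48.7% GC, 104 of 180 KRAB genes and 6 of 8 genes without KRAB rose (medians 0.71 and 0.75). Above it, 6 of 15 KRAB genes and 4 of 18 without KRAB rose, and 3 and 7 fell (medians 0.071 and -0.22).

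**Figure D4:**
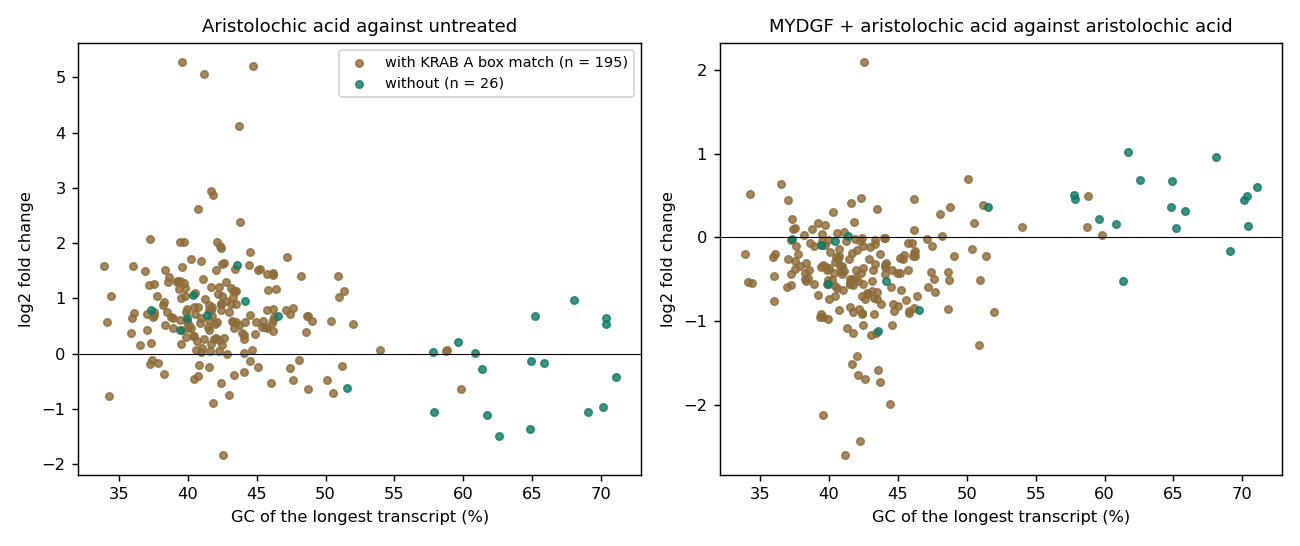
Log2 fold change of each tested ZNF gene (vertical axis) against the GC percent of its longest transcript (horizontal axis), coloured by KRAB match, with aristolochic acid (left) and with MYDGF added (right). Below 48.7% GC both classes lie mostly above 0 on the left (medians 0.71 and 0.75), and above it genes without KRAB have a median of -0.22.

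Other protein-coding genes of low GC content had a median near 0, and those of high GC content a median below 0. Of the protein-coding genes in the lowest of 4 GC bins (under 42.1%), 104 were ZNF genes of chromosome 19 with 59 up and 4 down (median 0.71), and 3316 were other genes with 954 up and 879 down (median 0.015). In the highest bin (57.0% and over), 4 of 20 members rose and 6 fell (median -0.15), and of 3400 other genes 842 rose and 1481 fell (median -0.25). Locus span showed a step only for the shortest genes: medians were 0.27, 0.64, 0.73 and 0.81 over 4 bins of protein-coding spans from short to long (45, 116, 52 and 8 members), against -0.17, -0.058, -0.0093 and -0.041 for other genes. By number of fingers, medians were 0.43 (up to 7 fingers), 0.71 (8 to 11), 0.65 (12 to 15) and 0.58 (16 or more).

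Members whose reads could be ambiguous had much the same median as the rest. The 22 tested members that share at least 20% of their 50-base words with transcripts of other genes had 12 rises and 0 falls (median 0.64), and the other 199 had 108 and 18 (median 0.65). Of the 125 members that overlap no other tested gene, 69 rose and 12 fell (median 0.67), and of the 96 that do, 51 rose and 6 fell (median 0.61). The highest median was that of members with the fewest counts at rest: of 25 under 2 CPM, 19 rose and 0 fell (median 1.43), where a low gene could pass the filter through its treated libraries, and of 34 at 20 CPM or more, 18 rose and 8 fell (median 0.48).

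With MYDGF added to aristolochic acid, the family stood lower. The summed level was 3871, 3596 and 3907 CPM with MYDGF, against 4140.4, 4850.3 and 4509 CPM under the toxin alone, a ratio of 0.843 ± 0.0765, with no overlap between groups. Of 221 genes, 11 rose (4.98%) and 59 fell (26.7%), where 14.7% of all genes tested rose and 14.7% fell. Rises of at least 2-fold were called for 2 of the 221 members, where 2.96% of all genes rose that far. Falls of at least 2-fold were called for 14 of the 221, where 6.42% of all genes fell that far. The share of members with such falls was thus near that of all genes. The median was -0.35, against 0.010 for all genes. The number of falls was 39 without aristolochic acid replicate 4, 33 without MYDGF replicate 3 and 39 without MYDGF replicate 4, and the rises were 7 without MYDGF replicate 3 or 4. This comparison shares its aristolochic acid libraries with the former one, so their values are only set side by side.

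KRAB match and base composition again went with the direction. Among 195 KRAB genes, 56 fell and 3 rose (median -0.39). Of 26 genes without KRAB, 8 rose and 3 fell (median 0.19). Without aristolochic acid replicate 4, MYDGF replicate 3 or MYDGF replicate 4, the falls of KRAB genes were 36, 30 and 36. Rises of genes without KRAB numbered 5 without MYDGF replicate 3 and 5 without MYDGF replicate 4. Below the protein-coding median of GC the 2 classes had similar medians. There 51 of 180 KRAB genes fell and 2 rose (median -0.40), and 2 of 8 without KRAB fell and 0 rose (median -0.31). Above it, 5 of 15 KRAB genes fell and 1 rose (median 0.028), and 8 of 18 without KRAB rose and 1 fell (median 0.41). Other protein-coding genes in the highest GC bin had 981 rises and 446 falls (median 0.17), where 20 members had 7 and 1 (median 0.40). ZNF genes of other chromosomes had 20 rises and 30 falls of 225 (median -0.047), and other protein-coding genes of chromosome 19 had 186 and 96 of 798 (median 0.13).

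Along the chromosome, cluster C had the lowest median (-0.62, 9 of 24 down and 1 up), and its run ZNF44, ZNF563, ZNF442, ZNF799 and ZNF443 fell as neighbours. Clusters H (13 of 37 down, median -0.49), F (7 of 26, -0.44), B (6 of 16 down and 1 up, -0.42) and I (20 of 55 down and 5 up, -0.31) followed. Cluster G was mixed (3 of 23 down and 2 up, -0.22), and in cluster A 1 of 5 rose and 0 fell (-0.015). In cluster D, where 13 genes had risen with the toxin, 1 of 24 fell (ZNF506, -0.64; median -0.19). Cluster E had no call in either direction by edgeR. The difference between clusters was not tested.

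The largest falls with MYDGF were of KRAB genes. ZNF350, known as ZBRK1, a BRCA1 partner and repressor of the growth arrest gene GADD45A, stood at 3.33, 3.19 and 3.1 CPM untreated, 7.69, 10.8 and 11.7 CPM under the toxin alone and 2.91, 3.28 and 3.11 CPM under the toxin with MYDGF. Its MYDGF and untreated values overlapped, and both lay below every aristolochic acid library (log2 fold change -1.69, SE 0.18, edgeR adjusted p = 0.000726 for MYDGF against aristolochic acid; log2 fold change 1.65, SE 0.18, edgeR adjusted p = 6.68e-05 for aristolochic acid against untreated). ZNF426 stood at 72.6, 107 and 104 CPM under the toxin alone, against 35.8, 23.6 and 31.7 CPM with MYDGF (log2 fold change -1.64, SE 0.18, edgeR adjusted p = 0.000797). ZNF439 stood at 1.46, 2.78 and 3.04 CPM under the toxin alone, against 0.766, 0.312 and 0.565 CPM with MYDGF (log2 fold change -2.12, SE 0.42, edgeR adjusted p = 0.00655). With 2 counts untreated and 22 with MYDGF, ZNF439 passed the filter only through its libraries with the toxin alone. Its fall is therefore a description only. ZNF610 of cluster H stood at 1.21, 3.55 and 3.5 CPM under the toxin alone, against 0.383, 0.781 and 0.353 CPM with MYDGF (log2 fold change -2.43, SE 0.49, edgeR adjusted p = 0.00722). It had been called higher with the toxin (1.21), with groups that overlapped and a call lost in 4 of 9 fits without 1 library (adjusted p 0.109 to 0.134).

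Less firmly, ZNF534 stood at 1.05, 3.94 and 3.86 CPM under the toxin alone, against 0.919, 0.312 and 0.212 CPM with MYDGF (log2 fold change -2.60, SE 0.69, edgeR adjusted p = 0.0215), a call lost without aristolochic acid replicate 4 or 6 or MYDGF replicate 3 or 4 (adjusted p 0.0684 to 0.0773). With 3 counts untreated and 19 with MYDGF, ZNF534 too passed the filter only through the toxin alone, so its fall is a description only. ZNF17 of cluster I stood at 5.99, 7.8 and 3.5 CPM under the toxin alone, against 1.07, 1.41 and 3.25 CPM with MYDGF (log2 fold change -1.58, SE 0.46, edgeR adjusted p = 0.0297) and was lost without aristolochic acid replicate 4 or MYDGF replicate 1 or 3 (adjusted p 0.082 to 0.1). ZNF442 fell by 1.51 on the log2 scale. ZNF699 fell by 0.87 and remained above untreated cells, at 43.5, 35.8 and 52.2 CPM. ZNF850 stood at 84.9, 63.2 and 75.6 CPM with MYDGF (-0.48, adjusted p = 0.0216), a call lost without aristolochic acid replicate 4 or 6 or MYDGF replicate 3 or 4 (adjusted p 0.0572 to 0.074).

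Rises with MYDGF were led by ZNF791, which stood at 9.23, 4.48 and 9.38 CPM under the toxin alone, against 38.4, 36.6 and 23.2 CPM with MYDGF (log2 fold change 2.09, SE 0.33, edgeR adjusted p = 0.00286); every MYDGF library lay above every library with aristolochic acid alone. Its level was 34.1, 30.03 and 18.1 CPM in untreated cells. ZNF580 stood at 23.8, 22.2 and 18.8 CPM untreated, 10.1, 11.1 and 8.74 CPM under the toxin alone and 21.4, 20.8 and 18.7 CPM under the toxin with MYDGF (rise over aristolochic acid 1.02, SE 0.13, adjusted p = 0.00131). ZNF296, ZNF584, ZNF414 and ZNF524 rose by 0.96, 0.69, 0.68 and 0.67. Of these, ZNF296 was lost without aristolochic acid replicate 6 or MYDGF replicate 3 or 4 (adjusted p 0.0794 to 0.0803) and ZNF414 without aristolochic acid replicate 4 or MYDGF replicate 3 (0.0513 and 0.0533). ZNF787 rose in both comparisons, standing at 38.7, 33.6 and 33.7 CPM untreated, 48.7, 56.3 and 48 CPM under the toxin alone and 66.9, 73 and 75.5 CPM under the toxin with MYDGF (0.53 and 0.49, both called).

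**Figure D5:**
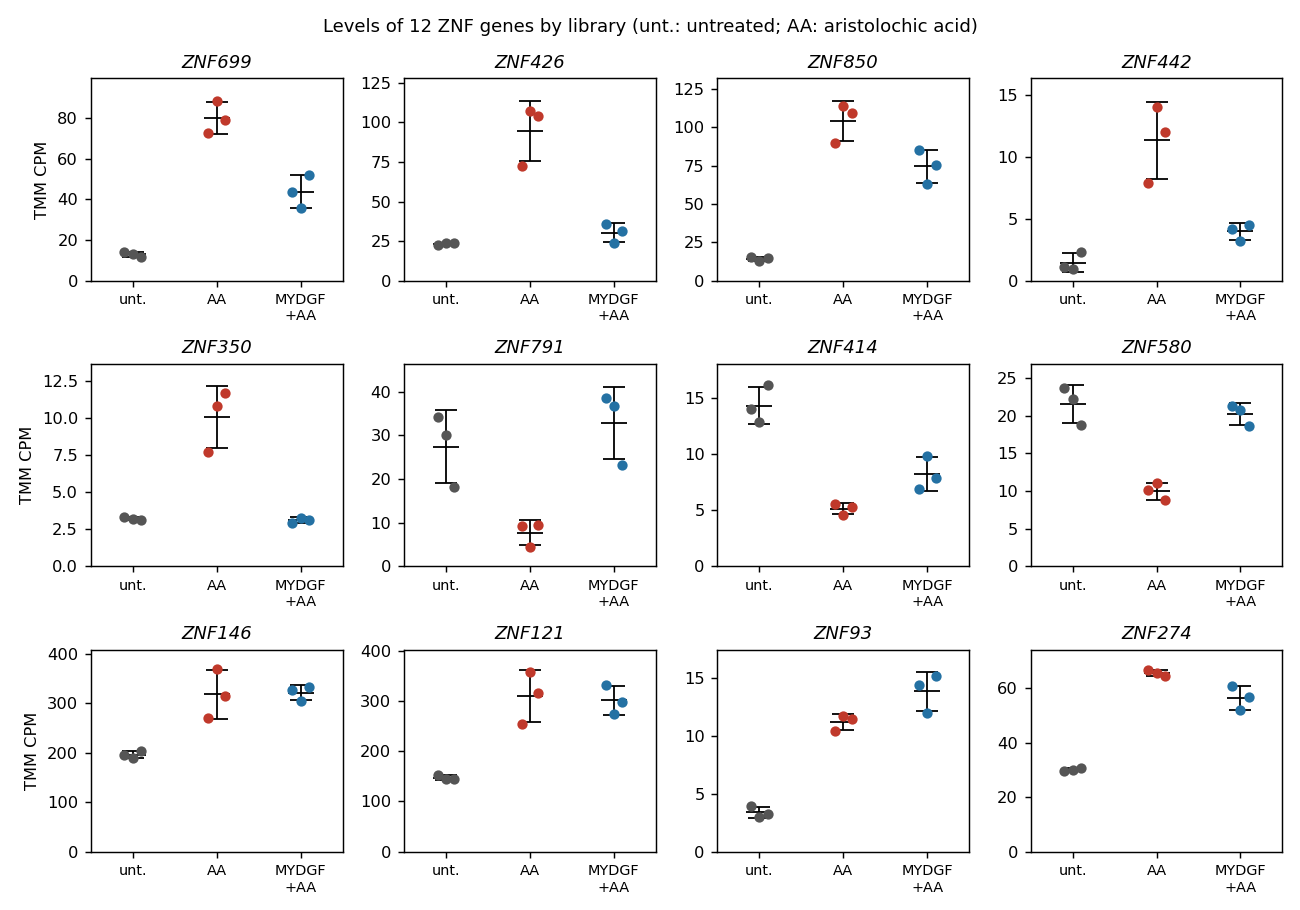
TMM-scaled CPM of 12 ZNF genes (vertical axis, each panel with its own scale from 0) in untreated (unt.), aristolochic acid (AA) and MYDGF with aristolochic acid libraries; points are libraries and bars mean ± SD (n = 3). ZNF350 stood at 7.69 to 11.7 CPM only with aristolochic acid alone, while ZNF146 and ZNF121 were as high with MYDGF added.

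ZNF146 and ZNF121, the members with the highest untreated CPM, were not called with MYDGF, while of the 34 members at 20 CPM or more at rest 13 fell (38.2%) and 6 rose (17.6%). ZNF146 stood at 196, 188 and 203 CPM untreated, 270.2, 369 and 314 CPM under the toxin alone and 327, 304 and 333 CPM under the toxin with MYDGF, a rise of 0.70 with the toxin (SE 0.10, adjusted p = 0.000333) and a difference of 0.016 with MYDGF (adjusted p = 0.925). ZNF121 differed by -0.038 with MYDGF (SE 0.12, adjusted p = 0.835), while its neighbours ZNF561 and ZNF562, with the same promoter motifs, fell by 0.65 and 0.56. Whether these differences differ from one another was not tested.

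Against untreated cells, the group with MYDGF and aristolochic acid had 64 of 221 members up (28.96%) and 17 down (7.69%), with a median of 0.25, where 26.8% of all genes tested were up and 24.3% down. The share of members up was thus near that of all genes, and the share down was smaller. Among members above 10 CPM at rest the largest of these differences were those of ZNF850 (2.39), ZNF699 (1.75) and ZNF829 (1.67). ZNF350, ZNF426 and ZNF791 were not called in it (-0.049, 0.37 and 0.26).

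Members with known targets did not move as one. ZNF93, a KRAB protein that silences LINE-1 elements, stood at 3.96, 3.02 and 3.25 CPM untreated, 10.4, 11.7 and 11.5 CPM under the toxin alone and 14.4, 11.9 and 15.2 CPM under the toxin with MYDGF (log2 fold change 1.71, SE 0.15, edgeR adjusted p = 2.29e-05), and it did not pass the test with MYDGF (0.30). ZNF91, which silences SVA elements, stood at 5.23, 10.2 and 7.94 CPM untreated, against 8.5, 17.1 and 12.7 CPM under the toxin, with groups that overlapped (log2 fold change 0.71, SE 0.29, edgeR adjusted p = 0.0577). ZNF274, which binds the 3′ ends of zinc finger genes and recruits SETDB1 there, rose from 30.05 ± 0.526 to 65.7 ± 1.16 CPM (SD, n = 3; log2 fold change 1.13, SE 0.074, edgeR adjusted p = 6.29e-06). It fell slightly with MYDGF (-0.22, adjusted p = 0.0477), a call lost in 8 of 9 fits without 1 library (adjusted p 0.0676 to 0.184).

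ZNF331, a gene rearranged in thyroid adenomas, stood at 16.7, 18.5 and 34.2 CPM untreated, 70.8, 76.9 and 39.6 CPM under the toxin alone and 46.5, 72.8 and 80.6 CPM under the toxin with MYDGF (log2 fold change 1.43, SE 0.34, edgeR adjusted p = 0.0052). ZNF420, known as Apak and a repressor of p53 activity, stood at 2.38, 14.1 and 6.51 CPM untreated, against 20.2, 20.9 and 15.2 CPM under the toxin (log2 fold change 1.30, SE 0.47, edgeR adjusted p = 0.0374), a call lost without untreated replicate 3 or aristolochic acid replicate 1 or 4 (adjusted p 0.0723 to 0.102). ZNF382 stood at 15.1, 13.3 and 15.8 CPM untreated, against 7.04, 9.5 and 29.8 CPM under the toxin and was not called (0.055); without aristolochic acid replicate 6, its one high library, it was called lower (-0.81, adjusted p = 0.0159). ZNF224, a partner of WT1 (0.46, adjusted p = 0.203), and ZNF675, an inhibitor of TRAF6 signalling (0.20, adjusted p = 0.377), did not pass.

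In each cluster the most abundant gene per length, over all 9 libraries, was ZNF77 (A), ZNF121 (B), ZNF700 (C), ZNF14 (D), ZNF302 (E), ZNF146 (F), ZNF428 (G), ZNF468 (H) and ZNF787 (I). With aristolochic acid, ZNF77 (0.80), ZNF121, ZNF14 (0.71), ZNF146, ZNF468 (0.84) and ZNF787 rose. ZNF700 of cluster C did not pass, at 19.3, 19 and 20.1 CPM untreated, against 17.6, 22.2 and 22.7 CPM under the toxin (0.098), amid neighbours that rose. ZNF302 (-0.19) and ZNF428 (-0.27) did not pass either, and ZNF428 fell with MYDGF (-0.51, adjusted p = 0.0121). ZNF428 overlaps SRRM5 on the opposite strand, which rose by 1.49 with the toxin, and ZNF468 shares 55.8% of its 50-base words with other transcripts.

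The genes through which KRAB proteins repress were measured as a list of 36. With aristolochic acid 8 rose and 6 fell (median 0.046), 22.2% and 16.7%, where 29.7% and 29.3% of all genes did. TRIM28 stood at 197, 186 and 186 CPM untreated, 241, 213 and 234 CPM under the toxin alone and 283, 272 and 276 CPM under the toxin with MYDGF, a rise of 0.27 with the toxin (adjusted p = 0.00354) and of 0.27 with MYDGF over it (adjusted p = 0.0101). SETDB1 moved by 0.18 and -0.22 in these comparisons, calls that were lost in 6 and 7 of 9 fits without 1 library (adjusted p 0.05 to 0.153 and 0.0534 to 0.123).

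The largest changes called in the list with the toxin were those of UHRF1, DNMT1 and MORC2 upward and of EHMT2, DNMT3B and MBD3 downward. UHRF1, which brings DNMT1 to newly copied DNA, rose by 0.88, and DNMT1, the maintenance methyltransferase, by 0.63, standing at 347, 358 and 348 CPM untreated, against 548, 517 and 559 CPM under the toxin. MORC2, a partner of the HUSH silencing complex, rose by 0.44. EHMT2 (G9a, a histone H3 lysine 9 methyltransferase) fell by 0.92, DNMT3B (a de novo methyltransferase) by 0.89 and MBD3 (a NuRD subunit) by 0.77. DNMT3A, the other de novo methyltransferase, was not called (-0.098, adjusted p = 0.376). The DNMT3B call was lost without untreated replicate 1 (adjusted p = 0.0578). With MYDGF 5 of the 36 rose and 3 fell (13.9% and 8.33%, where 14.7% and 14.7% of all genes did), with DNMT3B (0.92), EHMT2 (0.82) and MBD3 (0.55) leading the rises and DNMT1 (-0.36), MORC2 (-0.25) and SETDB1 the falls. Of these 6, DNMT1 kept its call in every fit without 1 library; EHMT2 was lost without aristolochic acid replicate 4 (adjusted p = 0.0517), and the other 4 were lost in 4 to 7 of the 9 fits. The rises numbered 2 without aristolochic acid replicate 4, MYDGF replicate 3 or MYDGF replicate 4 and 3 without MYDGF replicate 1. The falls numbered 1 without aristolochic acid replicate 4 or 6 or MYDGF replicate 1 or 3.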

How the data were processed

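The authors deposited 1 table of read counts and FPKM per gene for 9 RNA-seq libraries of HK-2 cells. The deposited values are whole-number counts, used for every test, and FPKM computed by the authors, used only to compare levels between genes per length. The tools named, per the submitters' processing notes, are HISAT2, edgeR, CASAVA 1.8 and SAMtools 1.3.1. Those notes name the mouse build mm10, whereas the table holds human gene identifiers, and all 249 positions overlap those of GENCODE 29 on GRCh38. The sources used here state no parameters, strand setting or role of edgeR. Of the rows, 20966 carry no symbol and were kept under their identifiers.

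Genes passing filterByExpr (10 counts, 15 in total) numbered 18267. Counts were scaled by TMM and fitted over all 9 libraries with edgeR 4.0.16 (R 4.3.3), glmQLFit and glmQLFTest, without covariates (6 residual degrees of freedom, biological coefficient of variation 16.4%). A call is an adjusted p under 0.05 (Benjamini-Hochberg over all tested genes), and log2 fold changes carry edgeR's default prior count. The fit was also run on simulated counts in which a small share of genes changed, equally in both directions. Far more genes were called in these data, so that run does not check the scaling here. CPM are TMM-scaled. DESeq2 1.42.0, other scalings and filters, a replicate block and leaving out each library in turn were alternatives. Library pairs within a group differed beyond sampling noise (chi-square per degree of freedom 8.79 to 17.9).

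C2H2 fingers were counted on the longest open reading frame of GENCODE 29 transcripts, since RefSeq proteins were not used here. KRAB A boxes (a profile of 40 residues from 185 members) were sought in every open reading frame above a minimum length. The best match of each gene was kept. Promoters came from RefSeq for the 218 members found there by symbol or, failing that, by Ensembl identifier. Members, lists and tests were chosen with earlier results of these data known. Named genes were, among called members whose groups did not overlap, the 8 largest changes each way with aristolochic acid and the 6 each way with MYDGF. To these were added the most abundant member per length of each cluster, 10 members of known role, any called member with a group at 0 counts (there was none), TRIM28, SETDB1 and the 3 largest called corepressor changes each way. Other members named were chosen after their values were seen.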

Additional observations from a re-analysis of the deposited data

How the results depend on the processing

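The counts of members called kept their direction and stayed within 1.5 times the reported count under RLE and upper quartile scaling, DESeq2, no filter, a stricter filter, a fit of only the 6 libraries compared and the subset sharing under 20% of 50-base words. The last, and ratios of summed levels by share of total counts (1.59 and 0.836) or without ZNF146 and ZNF121 (1.53 and 0.818), were chosen after seeing the data. Among the 36 corepressor genes with MYDGF, no filter and the fit of 6 libraries each gave 3 higher and 1 lower. Leaving out each library in turn moved the KRAB members called lower with aristolochic acid over 5 to 10 and the median over 0.57 to 0.74. In the comparison of MYDGF with aristolochic acid alone it moved members called higher over 7 to 12, lower over 33 to 70, KRAB members lower over 30 to 66, members without KRAB higher over 5 to 9, corepressors higher over 2 to 6 and lower over 1 to 3, and the median over -0.40 to -0.26. Against untreated cells the MYDGF median ran over 0.24 to 0.35.

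No sign of pairing by the replicate numbers in the titles was seen, and the numbers 2 and 6 occur once each. Deviations of same-numbered libraries correlated at -0.164 to 0.0183, and those of differently numbered libraries at -0.141 to 0.181. With 3 libraries a group, such correlations cannot exclude a shared culture or batch. A fit with the replicate block had 2 residual degrees of freedom. It gave 57 members higher and 10 lower with aristolochic acid, 25.8% and 4.52% against 14.5% and 13.2% of all genes (KRAB 53 and 4, 4 without KRAB higher, corepressors 2 and 1, median 0.55) and 42 and 10 for MYDGF against untreated cells. For MYDGF against aristolochic acid it gave 0 and 0 by edgeR, for members with and without KRAB and for corepressors, with 15 higher and 52 lower members at its unadjusted p under 0.05 (6.79% and 23.5%, against 13.6% and 12.9% of all genes), and 11 and 64 by DESeq2 without the block (4.98% and 29%, against 12.9% and 16.2%). Over all genes that comparison had 8 higher and 6 lower with the block. ZNF382 with aristolochic acid turned to -1.21 with the replicate block and to -0.81 without aristolochic acid replicate 6 (range -0.81 to 0.42 over libraries left out), and the cause was not tested. Of the values of 48 named genes under these settings, 1362 stayed on the same side of the threshold, 140 lost their call and 21 gained one. A gap of 500 kb between clusters gave 10 clusters and a gap of 2 Mb gave 6. Low counts limit ZNF439, ZNF534, ZNF556, ZNF763 and the untested members.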
